A study of Homo sapiens with 4 samples.

Results

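The Notch pathway was followed through 10 genes in H1792, a long-established line of human lung cancer cells, after exposure to the degrader ACBI1. These were the receptor genes NOTCH1, NOTCH2 and NOTCH3, the ligand genes JAG1, JAG2 and DLL1, and the target genes HES1, HES4, HEY1 and NRARP. Each was found by its gene symbol, so that 10 of the 61228 genes listed in the count files were members, and 9 of the 10 passed the filter on low counts. The libraries came from cells with a genotype labelled WT, kept for 96 h with the solvent DMSO (2 libraries) or with ACBI1 (2 libraries) at a dose that the labels write as 1 mM, an unusual unit for such a compound. ACBI1 is a PROTAC: it brings SMARCA2, SMARCA4 and PBRM1, which are ATPases and a subunit of SWI/SNF chromatin remodelling complexes, to the VHL ubiquitin ligase for degradation. It acts on proteins, so transcript levels do not check the treatment.

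Notch receptors are single-pass proteins that a ligand on a neighbouring cell activates. Binding is followed by cleavage by ADAM proteases and by gamma-secretase, and the freed intracellular part enters the nucleus, joins the DNA-binding protein RBPJ and a Mastermind co-activator, and turns on genes such as HES1, HEY1 and NRARP. HES and HEY proteins are transcriptional repressors, NRARP is a feedback inhibitor of the nuclear complex, and in the airway the pathway is known for the choice between secretory, ciliated and neuroendocrine fates.

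The sequences before the start sites of 3 target genes are shown first, because HES1 and HES4 carry the paired RBPJ motif for which this family is known, NRARP does not carry it in this window, and the transcripts of the 3 genes did not move alike. Each line gives the 150 bases before the RefSeq start, 5′ to 3′ on the strand of the gene (build GRCh38.p14). HES1 is at chr3:194135998-194136147 on the plus strand, HES4 at chr1:1000098-1000247 on the minus strand and NRARP at chr9:137302272-137302421 on the minus strand. Capitals mark matches to GTGNGAA, a form of the RBPJ motif, on either strand.
HES1: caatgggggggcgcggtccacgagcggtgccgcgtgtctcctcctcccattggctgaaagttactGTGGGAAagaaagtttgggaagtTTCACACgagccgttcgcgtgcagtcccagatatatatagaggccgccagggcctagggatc
HES4: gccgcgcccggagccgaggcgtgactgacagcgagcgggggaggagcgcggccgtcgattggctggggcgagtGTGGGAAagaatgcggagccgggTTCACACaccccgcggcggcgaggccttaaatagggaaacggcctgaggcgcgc
NRARP: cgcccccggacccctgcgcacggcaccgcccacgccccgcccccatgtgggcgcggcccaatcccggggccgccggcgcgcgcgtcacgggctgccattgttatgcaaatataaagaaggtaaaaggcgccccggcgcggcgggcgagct

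In HES1 the forward match began at position -85 and the reverse-strand match at -62, counted from the start site, and in HES4 the matches began at -77 and -54. The matches of a pair therefore began 23 bases apart in both genes. Of all 35116 RefSeq promoter windows of 300 bases (250 before and 50 after a start), 13.8% held GTGNGAA on either strand and 6.25% held GTGGGAA, a stricter form that is contained in it. A forward match with a reverse-strand match beginning 23 bases further on was found in 3 windows, those of HES1, HES4 and ITIH4. This spacing was set after the HES1 and HES4 sequences had been seen. RefSeq windows were at hand for 8 of the 10 members, and the windows of NOTCH1, NOTCH2, NOTCH3, JAG1, JAG2 and NRARP held no GTGNGAA. GENCODE 29 places the outermost HES4 start further upstream than RefSeq does, so that distances for this gene depend on the annotation.

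RNA-seq counts per gene had been deposited for the 4 libraries, with 64281850 to 86010100 counts in genes per library. Values are given as CPM, counts per 1000000 counts after TMM scaling, and a gene is called when its Benjamini-Hochberg adjusted p from edgeR's quasi-likelihood test over 19159 genes is under 0.05. The labels number the libraries of a group as replicates without naming separate cultures, so the p-values measure the spread between these libraries, which may be technical. SMARCA4, a target of the degrader, had a log2 change of 0.70 in its transcript (edgeR adjusted p 0.0583), and SMARCA2 had one of -0.40 (edgeR adjusted p 0.163). Of the epithelial markers, KRT7, KRT8 and KRT18 were at 139.9 to 680.4 CPM in the DMSO libraries. EPCAM was at 5.38 and 2.78 CPM and KRT19 at 3.44 and 5.00 CPM in DMSO replicates 1 and 2. CDH1, which encodes E-cadherin, had at most 16 counts in any library. Haematopoietic markers summed to at most 0.820 CPM in any library, and CD3E was at 0 in all 4.

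With ACBI1, the called Notch genes went both ways. Transcripts of the receptor gene NOTCH3 and of the target genes HES1 and HEY1 fell, while those of the ligand gene JAG2 and of the target gene NRARP rose. In all, 5 of the 9 tested members were called, where 17.4% of all tested genes were. The 2 rises compare with 6.75% of all tested genes called higher, and the 3 falls with 10.6% called lower. The median log2 change of the 9, which include DLL1 although it passed the filter through the DMSO libraries alone, was 0.24, beside 0.01 over all tested genes, and the changes ran from -2.26 for HEY1 to 1.35 for NRARP. The CPM of the groups did not overlap in any of the 9, and they did not overlap in 63.2% of all tested genes. Because these are bulk libraries, fewer cells with a transcript and less of it per cell cannot be told apart.

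**Figure D1:**
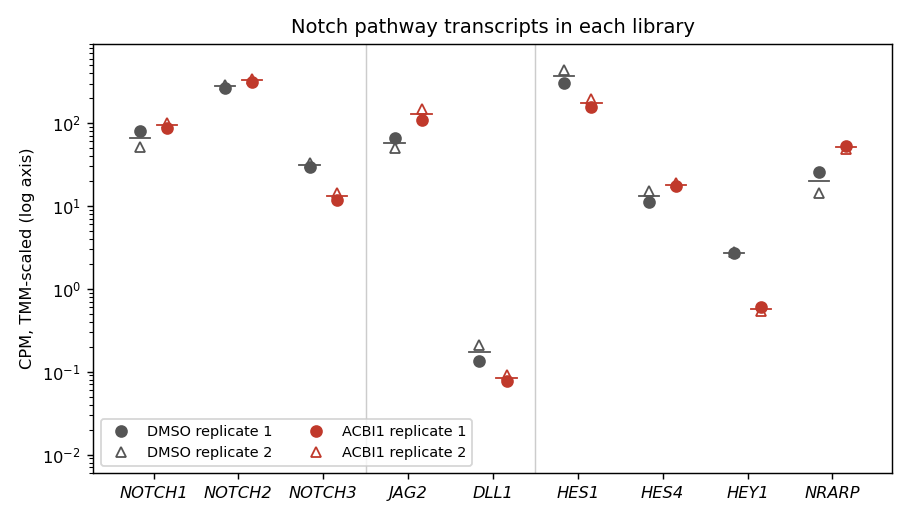
CPM after TMM scaling on a log axis for the 9 tested members in each library, in the order receptors, ligands and targets; horizontal lines are group means, and JAG1 is left out because it had 2 counts in all. NOTCH3, HES1 and HEY1 lay lower in both ACBI1 libraries and JAG2 and NRARP higher, while the groups lay close together for NOTCH2 and HES4.

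Among the receptors, NOTCH3 (GENCODE 29 gene at chr19:15159038-15200981, minus strand) was at 29.7 and 33.1 CPM in DMSO replicates 1 and 2 and at 11.9 and 14.2 CPM in ACBI1 replicates 1 and 2. The groups were well apart and the libraries within each group close together. The fall was 2.41-fold (log2 change -1.27, SE 0.19, edgeR adjusted p 0.0108). Without ACBI1 replicate 1, NOTCH3 was no longer called (log2 change -1.13, edgeR adjusted p 0.0563).

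NOTCH1 (chr9:136494433-136545786, minus strand), the receptor that is often altered in squamous cancers and leukaemia, was at 80.0 and 52.1 CPM with DMSO and at 88.0 and 101.3 CPM with ACBI1. The groups did not overlap, but the DMSO libraries differed from each other by more than the nearest libraries of the groups did. Its log2 change of 0.52 (95% interval -0.05 to 1.09) was not called (edgeR adjusted p 0.181). Without DMSO replicate 1, NOTCH1 was called higher with a log2 change of 0.86 (edgeR adjusted p 0.0193), and without DMSO replicate 2 its log2 change was 0.24 (edgeR adjusted p 0.594).

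NOTCH2 (chr1:119911553-120069626, minus strand) was at 265.8 and 288.4 CPM with DMSO and at 316.8 and 337.5 CPM with ACBI1. All 4 libraries were within a narrow range, and the log2 change of 0.24 (95% interval -0.16 to 0.64) was not called (edgeR adjusted p 0.354). The 4 NOTCH2NL genes, partial copies of NOTCH2 with near-identical sequence, could take or give reads. NOTCH2NLA, the copy with most counts, had 1.17% as many counts as NOTCH2 with DMSO and 0.903% as many with ACBI1. Reads that aligned to several places were given to no gene, so these shares do not limit what NOTCH2 may have lost.

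Per kilobase of exon, the levels of the 3 receptors in RPKM were ordered NOTCH2, NOTCH1, NOTCH3 in each library. NOTCH2 made up 59.3% and 66.8% of their summed RPKM in the DMSO libraries and 65.9% and 64.05% in the ACBI1 libraries. NOTCH3 made up 11.8% and 13.7% with DMSO and 4.42% and 4.83% with ACBI1. The ratio of the NOTCH3 level to the NOTCH1 level was 0.410 and 0.701 with DMSO and 0.149 and 0.155 with ACBI1. The summed RPKM of the 3 receptors was 26.7 and 25.7 with DMSO and 28.6 and 31.4 with ACBI1. The NOTCH3 share of receptor transcripts was thus lower in both ACBI1 libraries, while the sum was slightly higher in both. These single values are given as a description with no test, and an exact permutation test of 2 against 2 libraries could give no p below 0.333.

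Of the ligands, JAG2 (chr14:105140981-105168824, minus strand), a Jagged-type ligand, was at 65.3 and 49.8 CPM with DMSO and at 109.5 and 148.2 CPM with ACBI1. Each ACBI1 library exceeded both DMSO libraries, with a wide spread inside the ACBI1 group. The rise was 2.24-fold (log2 change 1.16, SE 0.22, edgeR adjusted p 0.0221). Without ACBI1 replicate 2, the higher of that group, JAG2 was no longer called (log2 change 0.92, edgeR adjusted p 0.0740). A second gene on the same strand overlaps 7.33% of the exonic length of JAG2.

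DLL1, a Delta-like ligand, had 11 and 15 counts with DMSO and 7 and 6 counts with ACBI1, and it passed the filter through the DMSO libraries alone. Its counts per library size with ACBI1 were 0.494 times those with DMSO (95% exact interval 0.233 to 0.998, counting error only), and the log2 change of -1.01 (95% interval -2.39 to 0.38) was not called (edgeR adjusted p 0.268). JAG1 had 2 counts in DMSO replicate 2 and 0 in the other 3 libraries. A count of 0 allows up to 0.0335 to 0.0458 CPM, depending on the library, and no comparison of JAG1 was made. JAG2 therefore held nearly all of the RPKM summed over the 3 ligands, with 99.1% to 99.9% in each library.

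HES1 (chr3:194136145-194138732, plus strand), the repressor whose paired motif is shown above, was the most abundant member per kilobase. It was at 307.8 and 439.1 CPM with DMSO and at 155.8 and 195.6 CPM with ACBI1. Both ACBI1 values lay below the lower DMSO value. The fall was 2.13-fold (log2 change -1.09, SE 0.24, edgeR adjusted p 0.0298). HES1 was not called without ACBI1 replicate 1 (log2 change -0.92, edgeR adjusted p 0.140) or without ACBI1 replicate 2 (log2 change -1.27, edgeR adjusted p 0.0547).

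HEY1, a related repressor with a role in vascular and other tissues, had 221 and 198 counts with DMSO and 54 and 35 counts with ACBI1. These are 2.71 and 2.75 CPM against 0.603 and 0.534 CPM. The libraries of each group were nearly level, and the fall was the largest among the members, at 4.79-fold (log2 change -2.26, SE 0.34, edgeR adjusted p 0.0109). HEY1 was the member that stayed called with any 1 library left out, with edgeR adjusted p from 0.00512 to 0.0400. Each gene was also centred on its own mean over the 4 libraries, so that its pattern and not its level counted. Among the 11160 genes averaging 5 CPM or more, SERPINE2, SLC22A4 and FBXO32 then ran closest to HEY1 in log2 CPM. Their Euclidean distances were 0.0999, 0.132 and 0.152 in log2 units. Their log2 changes were -2.24, -2.20 and -2.08, so this closeness over so few libraries mostly restates a fall of like size.

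NRARP (chr9:137300482-137302251, minus strand), the feedback inhibitor, moved the other way from HES1 and HEY1. It was at 25.7 and 14.3 CPM with DMSO and at 53.1 and 48.7 CPM with ACBI1. The DMSO libraries differed more from each other than the ACBI1 libraries did, and the groups did not overlap. The rise was 2.55-fold (log2 change 1.35, SE 0.29, edgeR adjusted p 0.0283). Without ACBI1 replicate 1, NRARP was no longer called (log2 change 1.29, edgeR adjusted p 0.0741).

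HES4 (chr1:998962-1000172, minus strand), a HES repressor with the same motif pair as HES1, was at 11.1 and 14.96 CPM with DMSO and at 17.4 and 18.8 CPM with ACBI1. The log2 change of 0.48 (95% interval -0.07 to 1.02) was not called (edgeR adjusted p 0.193). The level of HES1 per kilobase was 15.1 and 15.9 times that of HES4 in the DMSO libraries and 4.86 and 5.65 times in the ACBI1 libraries. The genes with the shared motif pair thus differed less in level with ACBI1, in both libraries, than with DMSO.

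**Figure D2:**
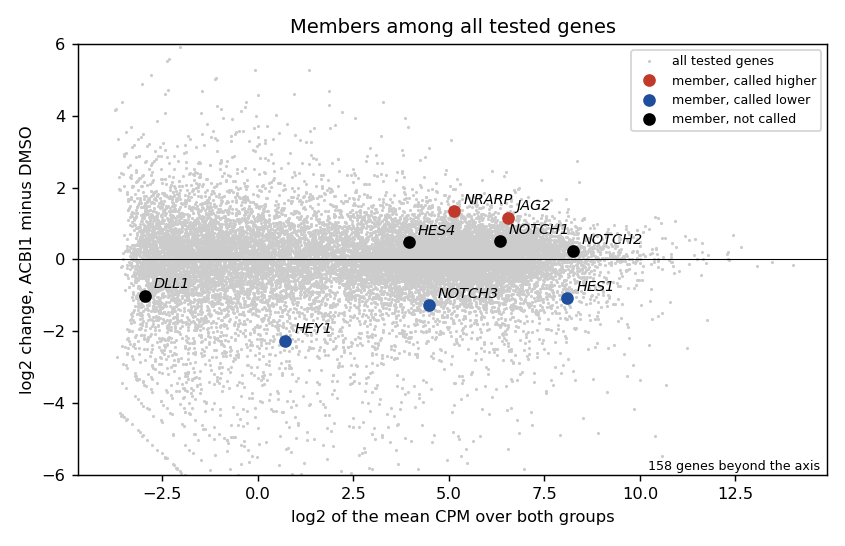
Log2 change (ACBI1 minus DMSO) against the log2 of the mean CPM for all 19159 tested genes (grey) and the 9 tested members (coloured by call). HEY1 lay lowest at -2.26 and NRARP highest at 1.35, and NOTCH1, NOTCH2, HES4 and DLL1 were not called.

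Ordered by mean RPKM with DMSO, HES1 (181 RPKM) stood far above NOTCH2 (16.5 RPKM), and HES4 (11.6 RPKM), NRARP (11.3 RPKM) and JAG2 (8.99 RPKM) followed with overlapping library values. NOTCH1 (6.36 RPKM), NOTCH3 (3.34 RPKM), HEY1 (0.846 RPKM) and DLL1 (0.0533 RPKM) came next, each without overlap with its neighbours. With ACBI1, HES1 was still first at 85.2 RPKM and NRARP was second at 28.8 RPKM. JAG2 (20.1 RPKM) and NOTCH2 (19.5 RPKM) overlapped, and HES4 (16.2 RPKM), NOTCH1 (9.12 RPKM), NOTCH3 (1.39 RPKM) and HEY1 (0.176 RPKM) followed without overlap. Exon lengths were taken over all GENCODE 29 transcripts of a gene, which lowers the RPKM of genes with long rare transcripts.

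**Figure D3:**
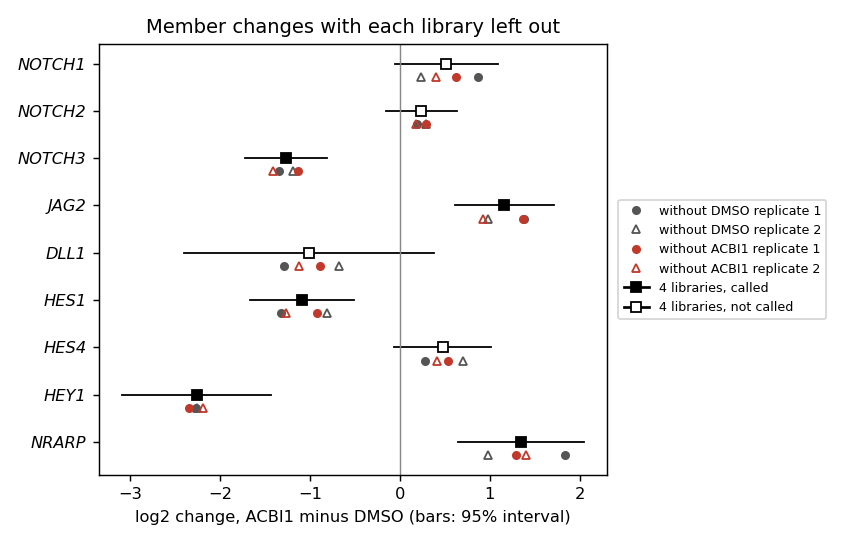
Log2 change (ACBI1 minus DMSO) of the 9 tested members with its 95% interval from all 4 libraries (squares, filled where called), and the value with each library left out (small symbols). Every left-out value kept the sign of its member, and those of NRARP ran from 0.98 to 1.83.

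The other genes of the pathway, 65 in 8 lists by role, gave 61 tested genes with 3 called higher and 9 lower. Their median log2 change was -0.09, and the 12 calls are 19.7% of the 61, beside 17.4% of all tested genes. Of the 5 other receptor and ligand genes, 3 were tested. NOTCH4 fell from 1.49 and 2.09 CPM to 0.458 and 0.473 CPM (log2 change -1.94, edgeR adjusted p 0.0230). DLL3, a Delta-like protein best known as an inhibitor of Notch inside the cell and as a marker of neuroendocrine lung cancer, rose from 3.34 and 2.36 CPM to 13.8 and 10.4 CPM (log2 change 2.09, edgeR adjusted p 0.0104).

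Of the 7 other HES, HEY and direct target genes, 6 were tested and 1 was called. HES7, known as an oscillating repressor of the segmentation clock, rose from 10.2 and 4.34 CPM to 35.5 and 25.9 CPM (log2 change 2.07, edgeR adjusted p 0.0252). Without DMSO replicate 1 its log2 change was 2.83, and without ACBI1 replicate 1 it was not called (edgeR adjusted p 0.0644). The median over the 6 was 1.43, and the log2 changes of the 5 that were not called ran from -0.09 for DTX1 to 2.06 for HES2. HES2, with 6 and 6 counts with DMSO and 18 and 31 counts with ACBI1, passed the filter through the ACBI1 libraries alone, so its place in this median and range was favoured by the filter.

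Genes for receptor cleavage, 9 of 9 tested, had a median log2 change of -0.63 with 1 called. NCSTN, the gamma-secretase subunit nicastrin, fell from 168 and 139 CPM to 78.3 and 76.0 CPM (log2 change -0.99, edgeR adjusted p 0.0156). The proteases ADAM10 and ADAM17 had log2 changes of -0.63 and -0.67 and the convertase FURIN one of -1.01, with edgeR adjusted p of 0.0708, 0.0568 and 0.0546. PSEN2, a catalytic subunit of gamma-secretase, had a log2 change of 0.92 and was not called either (edgeR adjusted p 0.108), with both ACBI1 libraries above both DMSO libraries. In 7 of the 9 genes both ACBI1 libraries lay below both DMSO libraries, as in 32.2% of all tested genes.

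Of the 5 genes for receptor glycosylation, LFNG was the one called. It encodes lunatic fringe, which adds sugars to Notch receptors and so shifts their response between Delta and Jagged ligands. LFNG was at 39.3 and 110 CPM with DMSO and at 5.95 and 7.92 CPM with ACBI1. The DMSO libraries were far apart, yet both were well above the ACBI1 libraries. The log2 change was -3.43 (SE 0.50, edgeR adjusted p 0.0104), and it was -2.51 without DMSO replicate 2. POFUT1 and POGLUT1, which add the first sugars, had log2 changes of 0.04 and -0.38 and were not called.

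In the nuclear activation complex, 2 of 9 genes were called, both lower. MAML2, a Mastermind co-activator, fell from 46.7 and 47.2 CPM to 16.4 and 14.6 CPM (log2 change -1.60, edgeR adjusted p 0.00427), and MAML3 fell from 32.8 and 31.0 CPM to 16.4 and 16.3 CPM (log2 change -0.97, edgeR adjusted p 0.0153). MAML1 had a log2 change of 0.26, and RBPJ, the DNA-binding subunit, one of -0.43, and neither was called (edgeR adjusted p 0.278 and 0.102). Among RBPJ co-repressor genes, 15 of 16 tested, SPEN rose (log2 change 0.67, edgeR adjusted p 0.0479) and TLE3, a Groucho-type partner of HES proteins, fell (log2 change -1.02, edgeR adjusted p 0.0118). The median of that list was 0.00.

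Of 6 genes for ligand ubiquitination and endocytosis, NEURL1, a ubiquitin ligase gene, was called lower (log2 change -2.07, edgeR adjusted p 0.0155), while MIB1, the ligase that activates most ligands, had a log2 change of 0.33 and was not called. Of 8 genes for receptor turnover and inhibition, 2 were called lower. They were DTX3L (log2 change -0.82, edgeR adjusted p 0.0236) and NUMB, an inhibitor of Notch receptors (log2 change -0.57, edgeR adjusted p 0.0452). NUMBL, in the same list, had a log2 change of 0.96 and was not called (edgeR adjusted p 0.113). Both ACBI1 libraries lay above both DMSO libraries for NUMBL. Of the 12 called pathway genes, 11 were called without DMSO replicate 1 (all but NUMB) and 9 without DMSO replicate 2 (all but NOTCH4, NUMB and SPEN). Without ACBI1 replicate 1, DLL3, LFNG and MAML2 were still called, and without ACBI1 replicate 2 these 3 with HES7 and NEURL1.

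**Figure D4:**
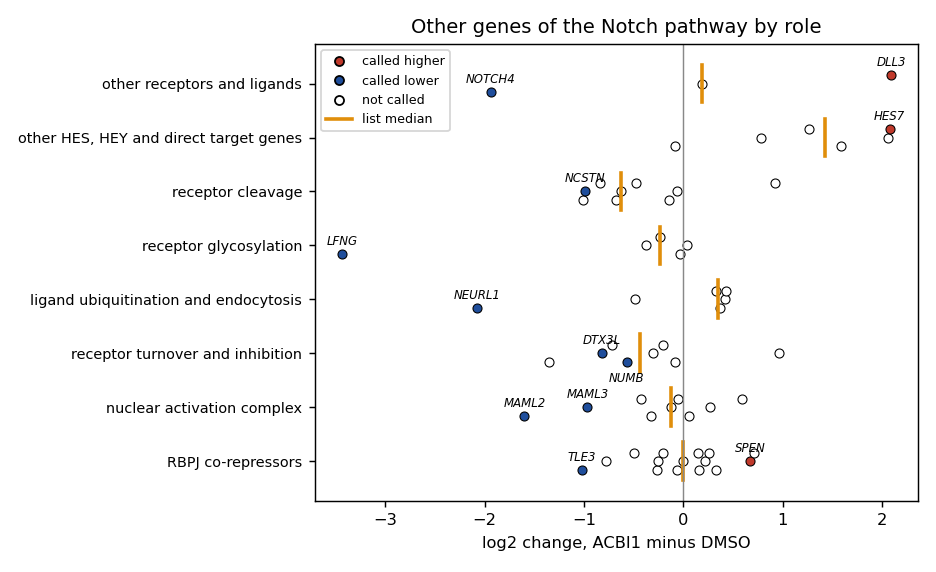
Log2 change (ACBI1 minus DMSO) of the 61 tested pathway genes other than the members, 1 point per gene, by role; points are coloured by call and orange bars are list medians. LFNG lay lowest at -3.43 and DLL3 highest at 2.09, and the medians ran from -0.63 for receptor cleavage to 1.43 for other target genes.

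Some cell type markers also differed between the groups. In the haematopoietic list 1 gene was tested, CD14, and it was not called. Of the epithelial markers, the keratin genes KRT7, KRT8, KRT18 and KRT19 fell and EPCAM was not called (log2 change 1.32, edgeR adjusted p 0.179). The 6 epithelial markers summed to 982 and 1035 CPM with DMSO and 323 and 202 CPM with ACBI1. Of 4 endothelial markers, PECAM1 and VWF were called lower. The endothelial sum was 12.7 and 49.0 CPM with DMSO and 0.123 and 0.107 CPM with ACBI1. PECAM1 alone gave 12.2 and 48.1 CPM of the DMSO sums. CDH5 had only 2 and 4 counts with DMSO, so its 0 with ACBI1 shows little. KDR was not called (edgeR adjusted p 0.109). Of 5 fibroblast markers, DCN, LUM and PDGFRA were called lower, and the sum was 31.6 and 96.9 CPM with DMSO and 9.39 and 13.2 CPM with ACBI1. THY1 was at 0 in both DMSO libraries. The endothelial and fibroblast sums, like HES1 and LFNG, were higher in DMSO replicate 2 than in DMSO replicate 1. NOTCH1, JAG2 and NRARP were lower there. NOTCH2 (265.8 and 288.4 CPM in DMSO replicates 1 and 2) and HES4 (11.1 and 14.96 CPM) were higher there too. So were NOTCH3 (29.7 and 33.1 CPM) and DLL1 (0.135 and 0.209 CPM). With ACBI1, NOTCH2 and HES4 lay higher without being called. NOTCH3 was called lower, and DLL1 lay lower without being called. HEY1 was nearly level between the DMSO libraries (2.71 and 2.75 CPM). Of 6 neuroendocrine markers, 1 was tested. This was SYP, which was called higher, from 0.0737 and 0.181 CPM to 4.92 and 4.96 CPM. NEUROD1 and INSM1 were at 0 in all 4 libraries. PECAM1, VWF and DCN passed the filter only through the DMSO libraries, and SYP only with the ACBI1 libraries. The direction of these marker calls was thus favoured by the filter. The part of these markers in the Notch results was not tested.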

How the data were processed

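RNA-seq of 4 H1792 libraries was used, grouped by their titles. The values the authors deposited are raw read counts per gene symbol, and TopHat2 2.1.1, HTSeq 0.11.0 and hg38 are named in the submitters' processing notes, while the annotation and the strand setting are not given in the sources used here, so antisense or overlapping genes can share reads. The closing lines for reads given to no gene were kept out, and gene counts were 84.6% to 86.1% of the reads listed. Genes passed edgeR's filterByExpr (minimum count 10, minimum total 15), were scaled by TMM (factors 0.958 to 1.04) and were tested with edgeR 4.0.16 in R 4.3.3 (glmQLFit, glmQLFTest, two-sided) on treatment alone, with p adjusted over 19159 genes. The SE is the log2 change divided by the square root of F, and 95% intervals use its t quantile. Lengths and positions came from GENCODE 29 (GRCh38), promoters from RefSeq. Exact intervals of counts and the limit that a count of 0 allows (3 counts) hold for counting error alone, as PCR duplicates are not separate molecules. The members and lists were chosen with earlier results of these data known. Called pathway genes were named, at most 5 per list, and beside them some uncalled genes chosen after their values were seen. Alternatives were other scalings, filters, tools (DESeq2 1.42.0, limma-voom 3.58.1), thresholds, a replicate block and each library left out. The scripts were tested on simulated data.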

Additional observations from a re-analysis of the deposited data

How the results depend on the processing

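The directions of the 9 tested members were the same under every alternative that gave a value (DLL1 and HEY1 dropped out under the filter at a mean of 5 CPM). The 5 called members were also 5 under each of the other scalings, without a filter, with DESeq2, with limma-voom and with a minimum log2 change of 1. At a threshold of 0.01, edgeR called 0 members (5 had an unadjusted p under 0.05), limma-voom 0 and DESeq2 5, while edgeR called 783 genes in all and 1 other pathway gene. With each library left out in turn, 2 to 6 members, 3 to 18 pathway genes and 1379 to 4292 genes in all were called. Without ACBI1 replicate 1 the called members were 2, and without ACBI1 replicate 2 they were 3. The lone library was then assumed to vary like the other group. Without a filter, 5518 genes and 25 pathway genes were called, DESeq2 called 20 pathway genes, and a minimum log2 change of 1 left 7 of the 12. NUMB was not called under scaling by library size only. With the replicate block, 7909 genes, 31 pathway genes and 7 members were called, the last with NOTCH1 (adjusted p 0.0273) and HES4 (adjusted p 0.0284) higher. Across genes, the replicate 1 minus replicate 2 differences of the groups had a correlation of 0.44, but the labels do not say that a number marks a shared batch, and 2 pairs do not settle it. The cause of these shifts was not tested. Leaving out a library changes both how many and which libraries remain. Depth limits JAG1 and DLL1, with at most 15 counts in a library.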
